A study of Mus musculus with 12 samples.

Results

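A set of 116 genes was highest after 1 day of aggregate culture in bipotential mouse embryonic liver (BMEL) cells and lower both before and after it. They were chosen from 18194 genes on the array by their measured levels. The log2 level averaged over the 4 arrays at 1 day had to be at least 6, and it had to exceed both the mean of the 4 basal arrays and the mean of the 4 arrays at 5 days by at least 0.8, a 1.74-fold difference. Peak height below is the smaller of these 2 excesses. The excess at 1 day is therefore given as a description, with no test. All 116 members passed the filter on low values (2 or more arrays at a log2 level of 5 or above), among 15780 genes tested, of which 0.735% met the rule.

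The cells were lines 9A1 and 14B3, isolated independently from liver of mouse embryos at day 14 post coitum, from a cross of CBA/J and C57Bl/6J mice. Each line was measured in basal culture, after 1 day as aggregates and after 5 days as aggregates, with 2 biological duplicates of each, 12 Affymetrix mouse 430 2.0 arrays in all. Each line is a single cell line, and no treatment other than the culture differs between the groups in the labels. BMEL cells are epithelial cells that keep the ability to become hepatocytes or bile duct cells. In basal culture they grow attached to the dish, and as floating aggregates they lose that attachment and gain contact with each other. The keratin genes Krt8, Krt18 and Krt19 of liver epithelium averaged log2 levels of 14.1, 13.9 and 13.9 in basal culture, and the mean of 9 endothelial markers lay between 5.44 and 5.89 on the 12 arrays. Levels are RMA values, log2 and normalised between arrays. Fewer cells of a type and less RNA per cell cannot be told apart.

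Lysosomes break down what autophagy and endocytosis deliver, and the transcription factors TFEB and TFE3 drive lysosomal genes through a site with the core CACGTG. Notch receptors, cut after contact with ligands on neighbouring cells, guide liver progenitors towards the bile duct fate. FOXO factors, active when insulin signalling is low, raise Sesn3, which feeds back on nutrient sensing.

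The arrays of 9A1 were the less even ones. The SD of the difference between replicates over the genes in basal culture was 0.840 in 9A1 and 0.244 in 14B3, at 1 day 0.744 and 0.293, and at 5 days 0.387 and 0.191. Basal 9A1 replicate 1 correlated at 0.952 with its mate and at 0.976 with 5 day 14B3 replicate 1. Over 30 hepatocyte genes it averaged 8.05, while the remaining basal arrays lay between 6.17 and 6.33. Over 26 absorptive gut genes it averaged 9.48, above the 6.02 to 6.31 of those arrays and below the 10.4 to 11.7 seen at 5 days. The library labelled basal 9A1 replicate 1 thus goes partly against its label. The SD was lowest on day 1 9A1 replicate 2 (2.13) and next lowest on day 1 14B3 replicate 2 (2.25). The highest was 2.33. Both replicate 2 arrays at 1 day also had the highest medians, 6.24 and 6.18. They exceeded the 4 basal and 5 day arrays of their line in 29.9% and 27.8% of all tested genes. For replicate 1 at 1 day these shares were 18.6% in 9A1 and 17.9% in 14B3. Basal 9A1 replicate 1 and day 1 9A1 replicate 2 are called doubtful below. Without both of them 186 genes met the rule, among them 102 of the 116 members.

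Promoters of 5 members that hold the marked letters are shown as examples. Each is the stretch of 250 bases before the transcript start on the gene's strand, 5′ to 3′, from RefSeq on build GRCm38.p6. Capitals mark CACGTG, the core of the TFEB site and of E-boxes, in the first 4. In Mmp13 they mark TGANTCA, the AP-1 site. The windows are chr3:67582518-67582767 for Mfsd1 (plus strand), chr17:12769707-12769956 for Igf2r (minus strand), chr9:42124298-42124547 for Sorl1 (minus strand), chr1:82291440-82291689 for Irs1 (minus strand) and chr9:7272264-7272513 for Mmp13 (plus strand).
Mfsd1: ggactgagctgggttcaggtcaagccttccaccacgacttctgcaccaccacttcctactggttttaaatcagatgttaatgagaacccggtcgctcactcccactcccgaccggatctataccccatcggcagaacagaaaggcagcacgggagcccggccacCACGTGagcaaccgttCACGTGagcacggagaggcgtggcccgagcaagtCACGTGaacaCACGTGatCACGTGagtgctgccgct
Igf2r: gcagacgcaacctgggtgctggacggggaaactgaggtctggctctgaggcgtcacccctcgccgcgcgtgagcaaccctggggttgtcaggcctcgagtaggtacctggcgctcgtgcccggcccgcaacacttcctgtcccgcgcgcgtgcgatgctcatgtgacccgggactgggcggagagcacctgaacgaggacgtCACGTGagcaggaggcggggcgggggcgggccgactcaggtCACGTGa
Sorl1: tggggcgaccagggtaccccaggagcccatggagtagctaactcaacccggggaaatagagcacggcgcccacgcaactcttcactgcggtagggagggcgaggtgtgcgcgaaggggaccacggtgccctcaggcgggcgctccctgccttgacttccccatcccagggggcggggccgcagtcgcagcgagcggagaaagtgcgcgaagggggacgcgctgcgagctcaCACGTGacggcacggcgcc
Irs1: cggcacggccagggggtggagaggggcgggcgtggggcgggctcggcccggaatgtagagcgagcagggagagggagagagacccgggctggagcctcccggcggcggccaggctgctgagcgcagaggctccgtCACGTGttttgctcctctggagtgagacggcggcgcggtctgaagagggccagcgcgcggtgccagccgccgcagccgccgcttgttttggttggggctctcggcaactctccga
Mmp13: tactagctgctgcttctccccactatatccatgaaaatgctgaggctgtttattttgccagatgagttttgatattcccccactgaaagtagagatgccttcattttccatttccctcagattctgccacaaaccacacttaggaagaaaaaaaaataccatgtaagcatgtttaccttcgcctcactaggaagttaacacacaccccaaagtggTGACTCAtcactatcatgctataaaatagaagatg

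Mfsd1, a lysosomal membrane transporter, held 5 copies of CACGTG, at 18 to 86 bases before the start, and Igf2r, the receptor that sorts enzymes to lysosomes, held 2. Sorl1, a sorting receptor of endosomes, had 1 copy 19 bases before the start, and Irs1 had 1 at 115 bases. Igf2r and Irs1 are grouped below with lipid and nutrient handling, not with the lysosome members. How many of the lysosome members hold CACGTG was not counted. The AP-1 letters of Mmp13, the collagenase gene, began 35 bases before its start. Of the 116 members, 90 had a window in the RefSeq table, taken as 300 bases with 50 after the start. CACGTG, which reads the same on both strands, stood in 13 of these 90 windows (14.4%) and in 9.37% of the windows of 12548 tested genes. TGANTCA, searched on both strands, stood in 7 (7.78%) and in 5.77%. The Ets letters CCGGAAG stood in 2 (2.22%) and in 15.2%, and the forkhead letters TGTTTAC in 4 (4.44%) and in 2.71%. A match describes letters and is not evidence of binding.

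Across the 116 members the median peak height was 1.03, a 2.04-fold difference, and it ranged from 0.80 to 2.29. The means at 1 day lay between 6.26 and 12.7. Averaged over members, the 12 arrays stood at 8.20 and 8.12 in basal 9A1 and 7.88 and 8.09 in basal 14B3. At 1 day they stood at 9.34 and 8.91 in 9A1 and 9.67 and 9.49 in 14B3. At 5 days they stood at 8.16 and 7.54 in 9A1 and 7.95 and 7.98 in 14B3, so that the mean over members was back near or below its basal level on every array. The heat map of members by array shows all 116 by what they are known to do. These groups were drawn up after the values were seen.

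**Figure D1:**
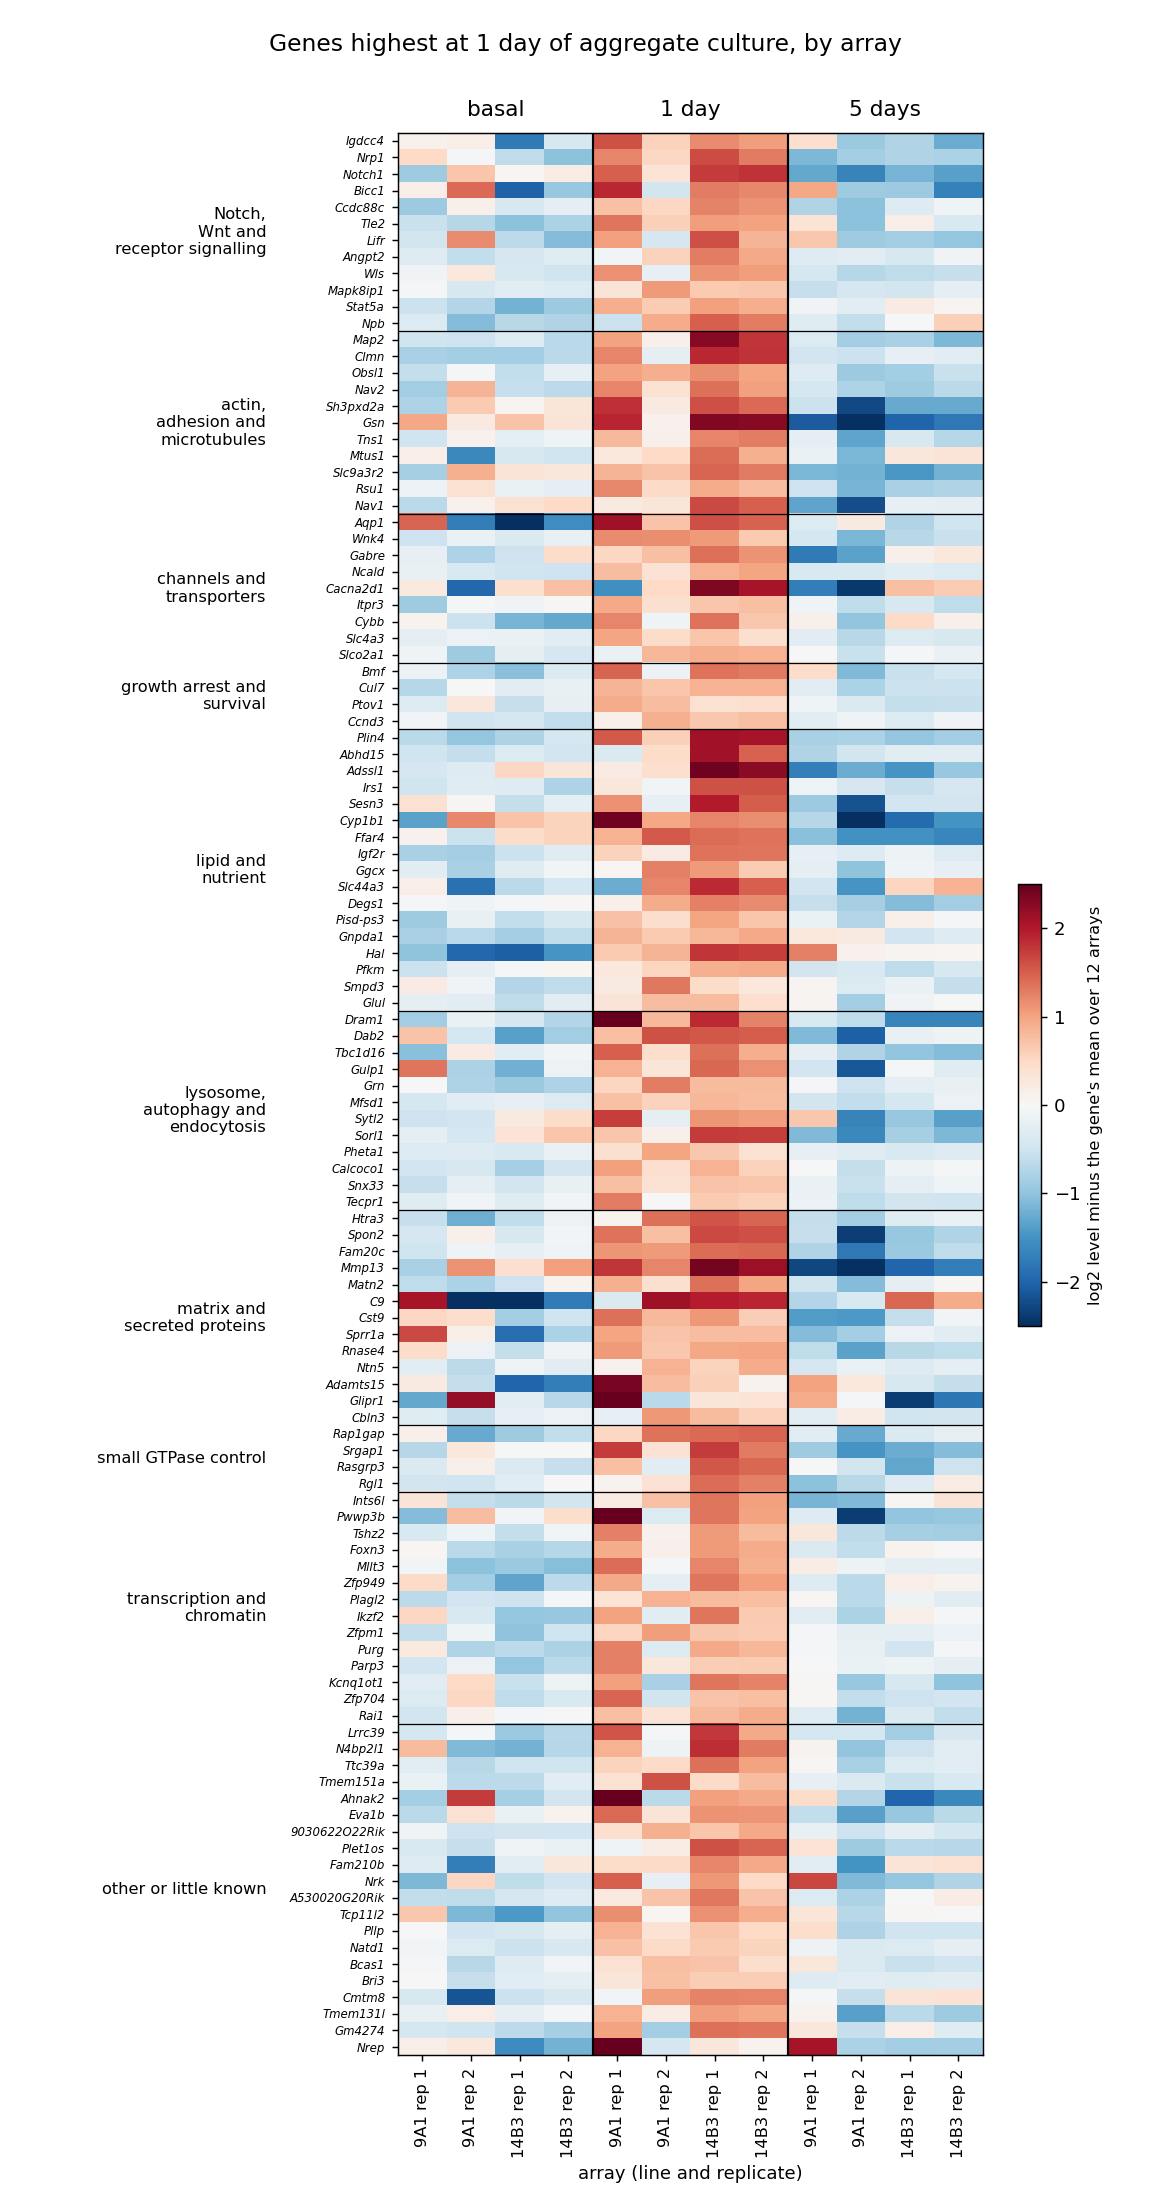
Heat map of the 116 members (rows, grouped by known role) on the 12 arrays (columns, by culture, line and replicate). Colour is the log2 level minus the gene's mean over the 12 arrays, cut off at 2.5 each way. The 1 day block is mostly red in 14B3, while in 9A1 it is paler on replicate 2 for many genes.

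Just inside the threshold lay Rai1 (peak height 0.81), a transcription regulator, Glul (0.81), which makes glutamine, and Nrep (0.80). Just outside it lay Psca, Hs1bp3 and Pear1, each at 0.80. All 4 arrays at 1 day lay above all 8 others in 63 members, against 1.89% of all tested genes, a count the rule itself favours.

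Plin4, which coats lipid droplets (chr17:56100587-56109948, GRCm38.p6), had the greatest peak height. Its log2 levels were 6.97 and 6.67 in basal 9A1 and 6.87 and 7.20 in basal 14B3, 9.18 and 8.23 at 1 day in 9A1 and 9.74 and 9.69 at 1 day in 14B3, and 6.82 and 6.85 at 5 days in 9A1 and 6.68 and 6.77 at 5 days in 14B3. All 4 arrays at 1 day were high, 14B3 above 9A1, and none overlapped the basal or 5 day arrays, which overlapped each other. The mean was 9.21 ± 0.70 at 1 day (SD, n = 4), 4.87-fold over basal and 5.38-fold over 5 days.

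Dram1 came next, a membrane protein of lysosomes that p53 induces and that promotes autophagy (chr10:88322801-88364359). Its levels were 5.96 and 6.66 in basal 9A1 and 6.40 and 6.10 in basal 14B3, 9.40 and 7.63 at 1 day in 9A1 and 8.69 and 8.06 at 1 day in 14B3, and 6.44 and 6.18 at 5 days in 9A1 and 5.17 and 5.18 at 5 days in 14B3. The 1 day arrays again stood clear of the others, and 14B3 ended lower than it began. The 1 day mean was 4.49-fold over basal and 6.51-fold over 5 days.

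**Figure D2:**
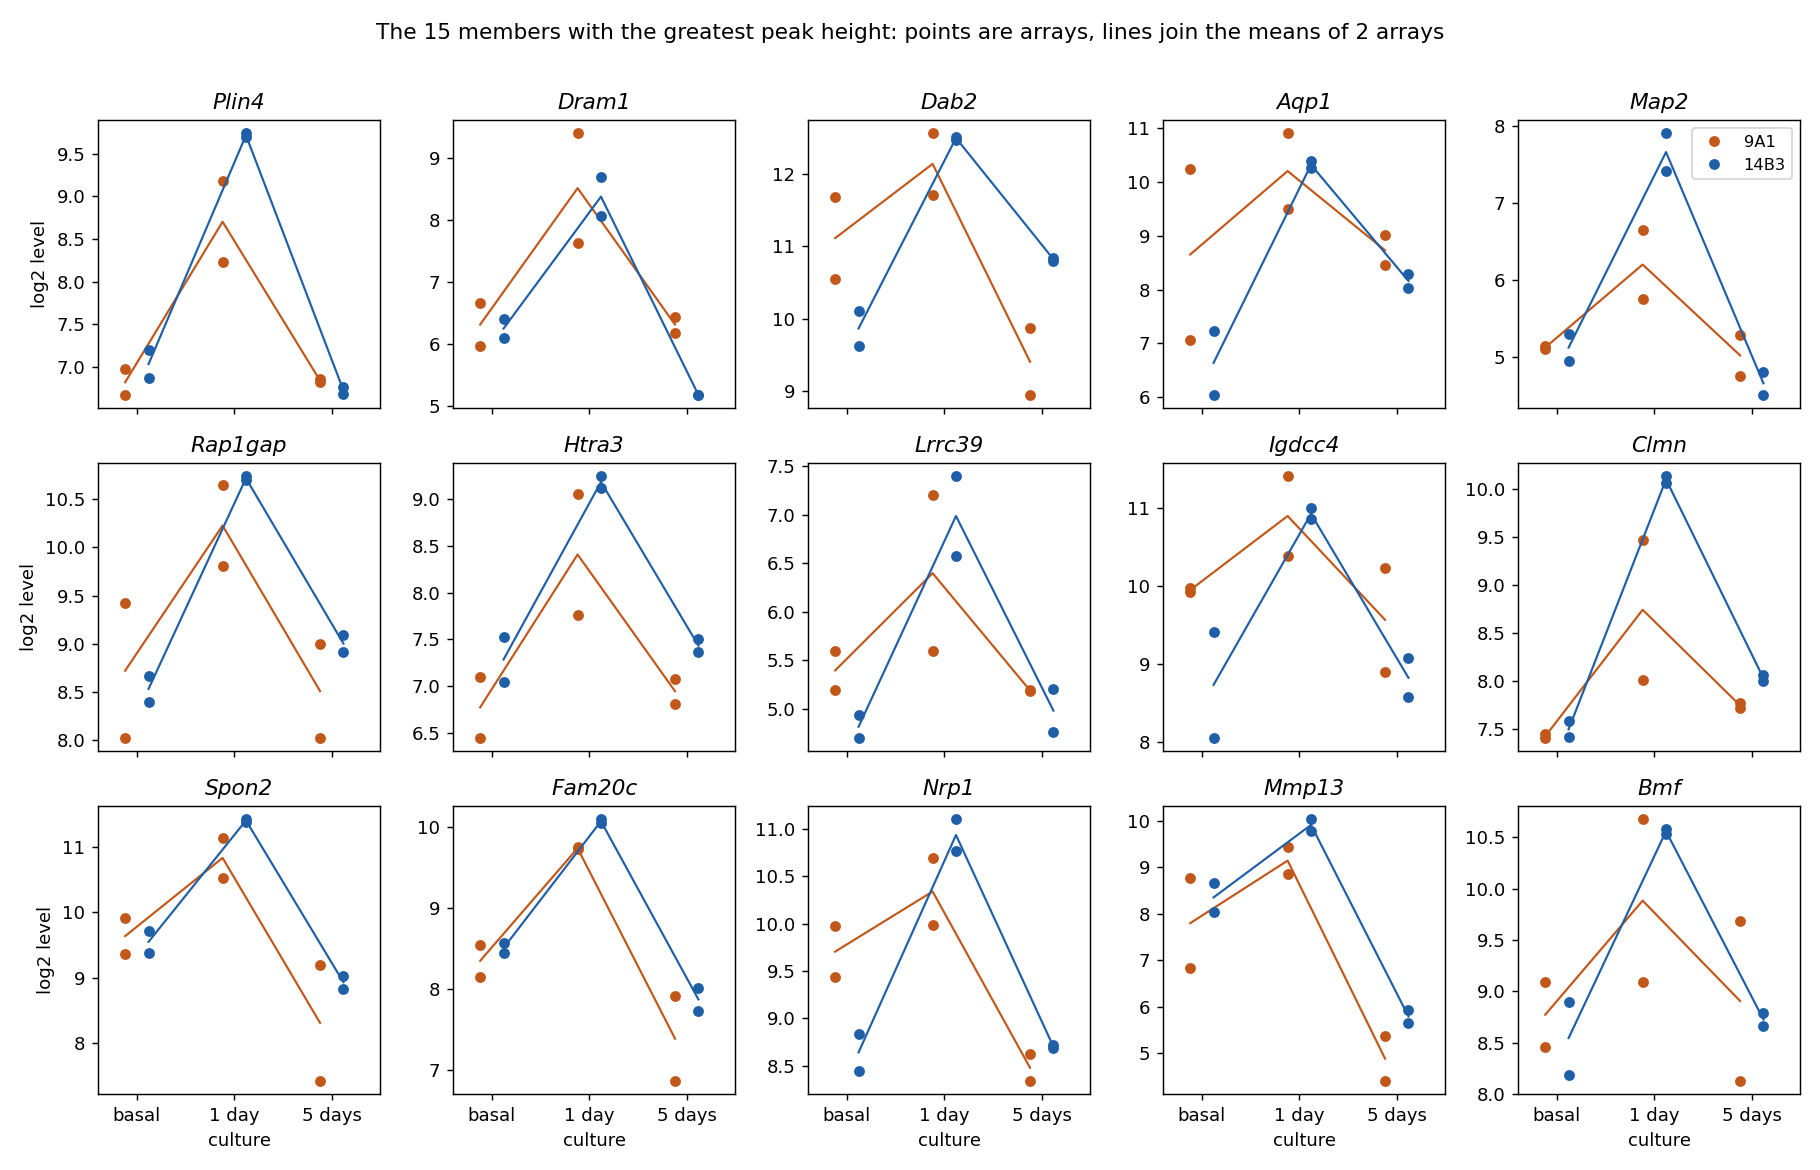
Log2 levels of the 15 members with the greatest peak height in the 3 cultures. Points are single arrays of 9A1 (orange) and 14B3 (blue), and lines join the means of 2 arrays. Plin4 reached 9.74 at 1 day in 14B3 and no higher than 7.20 on any basal or 5 day array, while basal 9A1 replicate 1 stood at 10.25 for Aqp1, within its range at 1 day.

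Over all 116 members the rule held within 9A1 alone in 63, within 14B3 alone in 102 and within both in 52. The group of lysosome, autophagy and endocytosis held 12 members, and the rule held within 9A1 alone in 10 of them, within 14B3 alone in 9 and within both in 7. Mfsd1 was the steadiest. It had 9.61 and 9.75 in basal 9A1 and 9.84 and 9.71 in basal 14B3, 10.78 and 10.63 at 1 day in 9A1 and 10.87 and 10.81 at 1 day in 14B3, and 9.59 and 9.43 at 5 days in 9A1 and 9.61 and 9.89 at 5 days in 14B3. All 4 of its 1 day arrays lay above the other 8, and its peak height was 1.02 in 9A1 and 1.07 in 14B3. Grn, the precursor of the lysosomal granulins, averaged 11.2 ± 0.42 on the basal arrays, 12.7 ± 0.31 after 1 day and 11.6 ± 0.21 after 5 days (SD, n = 4 each), the highest 1 day mean of all members.

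Dab2 links cargo to clathrin in endocytosis. It had 11.69 and 10.54 in basal 9A1 and 9.62 and 10.11 in basal 14B3, 11.72 and 12.57 at 1 day in 9A1 and 12.52 and 12.48 at 1 day in 14B3, and 9.87 and 8.94 at 5 days in 9A1 and 10.80 and 10.85 at 5 days in 14B3. The 1 day arrays were highest in both lines, though the lowest of them only just passed basal 9A1 replicate 1. Calcoco1, a receptor for autophagy of the endoplasmic reticulum, and Tecpr1, which joins autophagosomes to lysosomes, averaged 8.69 ± 0.28 and 10.1 ± 0.52 at 1 day (SD, n = 4), 2.40-fold and 1.75-fold over basal. Gulp1, an adaptor for engulfing dying cells, was less regular, since basal 9A1 replicate 1 read 9.15 and the remaining basal arrays 6.62 to 7.67.

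The lysosome members were set beside 26 tested genes of a list of lysosome and autophagy genes, none of them a member. Of these, 13 were higher at 1 day than in basal culture and 0 were lower (limma, adjusted p under 0.05, 17 and 0 at an unadjusted p under 0.05), where 5.25% of all tested genes were higher and 8.8% lower. Their median difference was 0.53, against 0.03 over all tested genes. Ctsa, a protease that protects other lysosomal enzymes, rose by 1.68 ± 0.24 (SE, adjusted p = 0.0026), and Atp6v0d1, part of the proton pump, rose by 1.29 ± 0.16 (adjusted p = 0.00171). Tfeb rose by 0.79 ± 0.15 (adjusted p = 0.0101), and a part of TFEB in the levels of the other genes was not tested.

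At 5 days 11 of the 26 were above basal and 1 below, where 16.9% of all tested genes were higher and 18.5% lower. Between 1 day and 5 days 2 of the 26 fell and 1 rose, where 10% of all tested genes were lower and 11.7% higher. Those that fell were Map1lc3a, an autophagosome protein, and Npc2, which carries cholesterol out of lysosomes. Gla, which splits sugars from lipids, rose. Map1lc3a fell by 0.62 ± 0.14 (adjusted p = 0.0121) and Npc2 fell by 1.01 ± 0.09 (adjusted p = 0.000298). The 1 day count was 5 without basal 14B3 replicate 1, 6 and 8 without 1 day 14B3 replicates 1 and 2, and 21 without both doubtful 9A1 arrays.

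**Figure D3:**
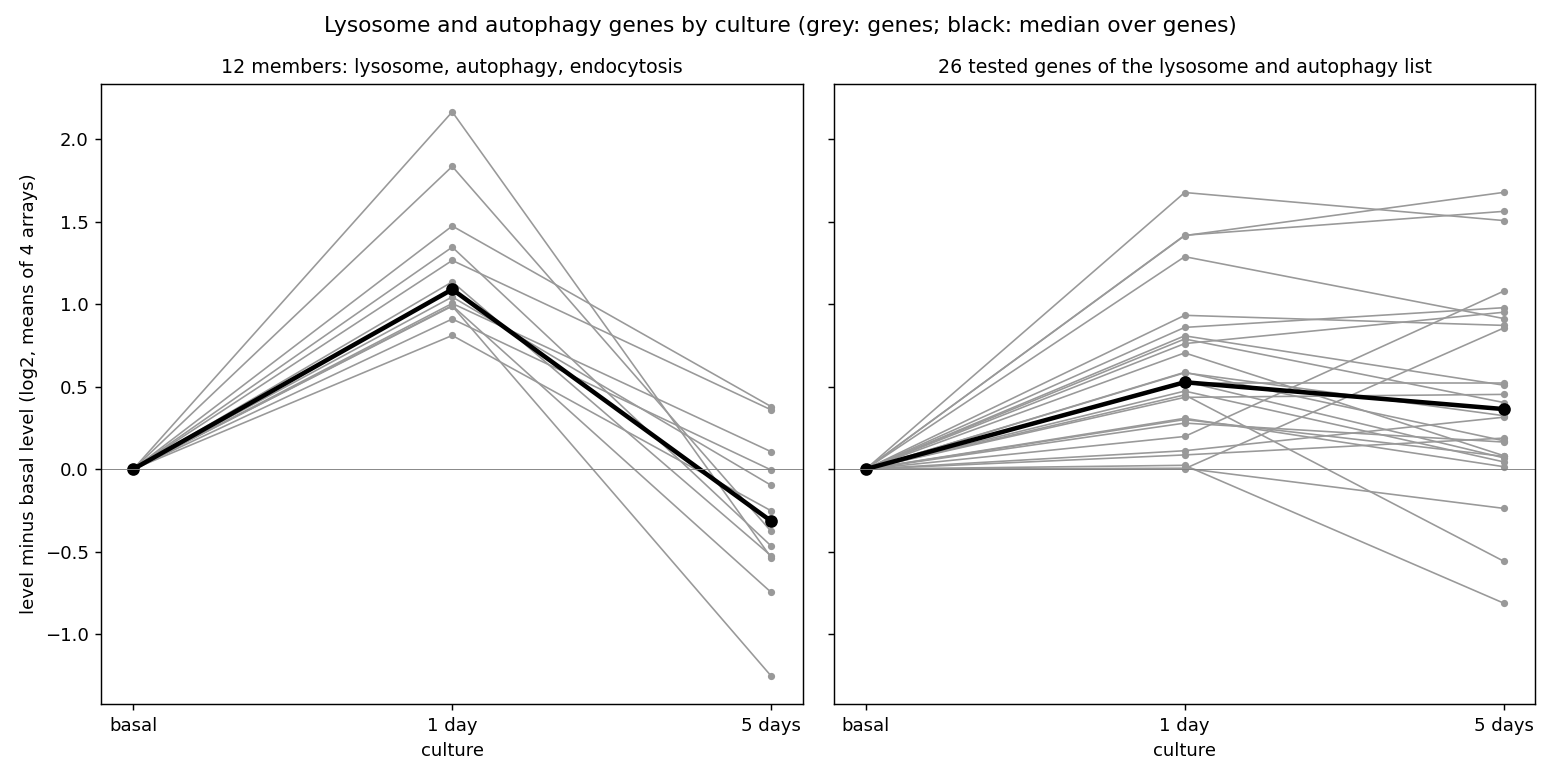
Log2 level minus the basal level, means of 4 arrays, for the 12 members of the lysosome, autophagy and endocytosis group (left) and the 26 tested genes of the lysosome and autophagy list (right). Grey lines are genes and black lines the median, which on the right stood at 0.53 at 1 day and 0.36 at 5 days; on the left the fall to 5 days is fixed by the choice of members.

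The group named lipid and nutrient handling held 17 members. It is a broad group, which also holds Igf2r, the cytochrome P450 Cyp1b1 and Adssl1, of AMP synthesis, so its size does not rank lipid handling. Irs1, which carries the signal from insulin receptors, had 8.88 and 9.09 in basal 9A1 and 9.07 and 8.62 in basal 14B3, 9.68 and 9.31 at 1 day in 9A1 and 10.99 and 10.97 at 1 day in 14B3, and 9.28 and 8.97 at 5 days in 9A1 and 8.80 and 8.96 at 5 days in 14B3. The 14B3 arrays at 1 day stood far above the rest, while those of 9A1 lay just above the highest 5 day array. Sesn3, a sestrin that restrains growth signalling, had 9.89 and 9.55 in basal 9A1 and 8.93 and 9.29 in basal 14B3, 10.66 and 9.31 at 1 day in 9A1 and 11.50 and 11.03 at 1 day in 14B3, and 8.61 and 7.35 at 5 days in 9A1 and 9.04 and 9.07 at 5 days in 14B3. Here day 1 9A1 replicate 2 fell within the basal range.

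Irs1, but not Sesn3, is one of 20 tested genes of the list of FOXO targets and insulin response. Among the 19 others, 2 were higher at 1 day and 1 was lower (limma, adjusted p under 0.05). The count of genes higher, Irs1 included, was 3. Leaving out basal 9A1 replicate 1 gave 8, leaving out replicate 2 of 9A1 at 1 day gave 6, and leaving out both gave 11. It was 1 when replicate 1 of basal 14B3, or one of the arrays of 14B3 at 1 day, was left out.

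Ffar4, a receptor for long-chain fatty acids, averaged 10.2 ± 0.50 on the basal arrays, 11.4 ± 0.29 after 1 day and 8.67 ± 0.26 after 5 days (SD, n = 4 each), without overlap between any of the cultures. Degs1, which makes ceramide from dihydroceramide, averaged 11.7 ± 0.52 at 1 day, and Smpd3, a sphingomyelinase, 9.66 ± 0.51. Hal, which breaks down histidine, had a different course. It had 6.63 and 5.68 in basal 9A1 and 5.60 and 6.18 in basal 14B3, 8.29 and 8.50 at 1 day in 9A1 and 9.43 and 9.37 at 1 day in 14B3, and 8.91 and 7.76 at 5 days in 9A1 and 7.71 and 7.69 at 5 days in 14B3. Its levels at 5 days were far above basal, and in 9A1 they overlapped those at 1 day. On the list of fatty acid and lipid genes, which holds no member, 5 of 26 were higher at 1 day and 1 was lower, and the 5 became 12 when basal 9A1 replicate 1 was left out and 8 when replicate 1 of 9A1 at 1 day was. They became 2 when replicate 1 of basal 14B3 was left out, 3 when one of the arrays of 14B3 at 1 day was, and 13 when both doubtful arrays were.

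Among 13 members for matrix and secreted proteins, Mmp13, a collagenase (chr9:7272514-7283333), had the greatest fold difference between 1 day and 5 days. It had 6.83 and 8.76 in basal 9A1 and 8.04 and 8.66 in basal 14B3, 9.42 and 8.85 at 1 day in 9A1 and 10.03 and 9.78 at 1 day in 14B3, and 5.36 and 4.39 at 5 days in 9A1 and 5.65 and 5.92 at 5 days in 14B3. The 5 day arrays lay below all others, and the lowest 1 day array only just exceeded the highest basal one. The 1 day mean was 2.74-fold over basal and 18.3-fold over 5 days.

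Htra3, a secreted protease, Spon2, a matrix protein, and Fam20c, the kinase of secreted proteins, followed, with 1 day means of 8.80 ± 0.69, 11.1 ± 0.42 and 9.90 ± 0.19 (SD, n = 4 each). In all 3 the 1 day arrays lay above the other 8. Adamts15, a protease that cuts proteoglycans, averaged 9.30 ± 0.99 at 1 day, with both 9A1 arrays above both of 14B3. C9, the last component of the complement attack complex, was uneven in 9A1. It had 11.69 and 5.79 in basal 9A1 and 6.32 and 7.88 in basal 14B3, 9.27 and 11.75 at 1 day in 9A1 and 11.60 and 11.53 at 1 day in 14B3, and 8.89 and 9.24 at 5 days in 9A1 and 11.07 and 10.57 at 5 days in 14B3. Basal 9A1 replicate 1, high for C9, is the array with the high hepatocyte mean, and the part of that in the C9 values was not tested.

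On the list of matrix and integrin genes, which holds no member, 1 of 30 was higher at 1 day and 4 were lower, while between 1 day and 5 days 11 were lower and 1 higher, where 10% of all tested genes were lower and 11.7% higher. The 11 became 6 or 7 when any one array of 14B3 at 1 day or 5 days was left out, 6 when replicate 2 of 9A1 at 5 days was, and 17 when both doubtful 9A1 arrays were. The immediate early list, with the AP-1 subunits, had 0 of 28 genes higher and 10 lower at 1 day (limma, 1 and 13 at an unadjusted p under 0.05). The 10 became 5 or 6 when any one array of 14B3 in basal culture or at 1 day was left out, and 2 with array weights.

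Actin, adhesion and microtubules accounted for 11 members. Map2, a microtubule protein best known from neurons, had 5.14 and 5.11 in basal 9A1 and 5.29 and 4.95 in basal 14B3, 6.64 and 5.76 at 1 day in 9A1 and 7.91 and 7.41 at 1 day in 14B3, and 5.29 and 4.75 at 5 days in 9A1 and 4.81 and 4.50 at 5 days in 14B3. Every 1 day array was above the others, by less in 9A1. Its other 3 probe sets, with means at 1 day from 4.28 to 5.22, had peak heights from 0.08 to 0.58, and the mean of all its probe sets had 0.65, under the threshold. Clmn, an actin-binding membrane protein, averaged 7.46 ± 0.08 on the basal arrays, 9.42 ± 0.99 after 1 day and 7.88 ± 0.17 after 5 days (SD, n = 4 each).

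Gsn encodes gelsolin, which cuts actin filaments. It had 9.77 and 9.04 in basal 9A1 and 9.51 and 9.12 in basal 14B3, 10.70 and 8.92 at 1 day in 9A1 and 11.11 and 11.08 at 1 day in 14B3, and 6.72 and 5.85 at 5 days in 9A1 and 6.81 and 7.03 at 5 days in 14B3. The peak was plain in 14B3, day 1 9A1 replicate 2 lay below the basal arrays, and the 5 day arrays were far below everything else. The paralogs Nav1 and Nav2, which guide microtubules at the cell edge, both met the rule, with peak heights of 0.84 and 1.31. None of their other probe sets did, with peak heights from 0.03 to 0.70 in Nav1 and from -0.10 to 0.48 in Nav2.

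The 12 members for Notch, Wnt and receptor signalling all met the rule within 14B3 alone, and 6 of them did so within 9A1. Over all 116 members these shares were 87.9% and 54.3%, and the choice of members fixes much of them. Notch1 had 7.95 and 9.54 in basal 9A1 and 8.90 and 9.03 in basal 14B3, 10.34 and 9.20 at 1 day in 9A1 and 10.60 and 10.66 at 1 day in 14B3, and 7.58 and 7.18 at 5 days in 9A1 and 7.69 and 7.49 at 5 days in 14B3. Basal and 1 day arrays overlapped through 9A1, and 5 day arrays were lowest. Of the other 18 tested genes of the Notch pathway list 0 were higher or lower at 1 day (limma, 1 higher and 2 lower at an unadjusted p under 0.05), while between 1 day and 5 days 4 fell and 3 rose. With Notch1 included 5 fell, and 3 did so when replicate 2 of 14B3 at 1 day, replicate 2 of 9A1 at 5 days or one of the arrays of 14B3 at 5 days was left out. Notch2, a second receptor, fell by 1.43 ± 0.29 (adjusted p = 0.00856), and Nrarp, a Notch target that dampens the signal, fell by 1.59 ± 0.39 (adjusted p = 0.0187).

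Wls, which carries Wnt proteins to the surface, averaged 11.05 ± 0.66 at 1 day, and Tle2, a corepressor of Wnt and Notch targets, 8.71 ± 0.31 (SD, n = 4 each). On the list of Wnt targets and feedback genes 2 of 24 were higher at 1 day and 2 lower. Igdcc4, a surface protein known from fetal liver progenitors, had 9.92 and 9.98 in basal 9A1 and 8.04 and 9.41 in basal 14B3, 11.42 and 10.39 at 1 day in 9A1 and 10.9997 and 10.86 at 1 day in 14B3, and 10.23 and 8.90 at 5 days in 9A1 and 9.07 and 8.57 at 5 days in 14B3. Nrp1, a receptor for semaphorins and VEGF, averaged 9.17 ± 0.67 on the basal arrays, 10.6 ± 0.47 after 1 day and 8.59 ± 0.17 after 5 days (SD, n = 4 each). In both, all 1 day arrays were above all others. Stat5a, which carries cytokine and hormone signals to the nucleus, was tightly spaced at 1 day, between 8.94 and 9.32.

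Of 9 channels and transporters, Aqp1, the water channel of bile duct cells, had 10.25 and 7.06 in basal 9A1 and 6.04 and 7.24 in basal 14B3, 10.91 and 9.50 at 1 day in 9A1 and 10.39 and 10.25 at 1 day in 14B3, and 8.45 and 9.01 at 5 days in 9A1 and 8.04 and 8.29 at 5 days in 14B3. It was high at 1 day in both lines, but basal 9A1 replicate 1 was as high. Aqp1 stands on the list of 21 tested bile duct and progenitor markers. Among the other 20, Slc4a2, a chloride and bicarbonate exchanger, rose by 1.07 ± 0.11 at 1 day (adjusted p = 0.000705) and Tnfrsf12a, a cytokine receptor, fell by 1.02 ± 0.22 (adjusted p = 0.0157).

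Cybb, the catalytic subunit of the oxidase known from phagocytes, averaged 5.41 ± 0.64 on the basal arrays, 6.92 ± 0.66 after 1 day and 6.07 ± 0.63 after 5 days (SD, n = 4 each). The mean of 8 tested blood and macrophage markers lay between 6.82 and 7.05 on the basal arrays, between 6.98 and 7.38 at 1 day and between 6.86 and 7.32 at 5 days. Of them 1 passed the test at 1 day, Csf1r, the receptor for macrophage growth factor, which was higher by 1.64 ± 0.26 (adjusted p = 0.00396). The macrophage marker Adgre1 had means of 4.93 (basal), 4.97 (1 day) and 5.24 (5 days). A part of such cells in the Cybb values was not tested.

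Rap1gap, which switches off the small GTPase Rap1, led the 4 members for control of small GTPases. It had 9.42 and 8.02 in basal 9A1 and 8.40 and 8.66 in basal 14B3, 9.81 and 10.65 at 1 day in 9A1 and 10.69 and 10.74 at 1 day in 14B3, and 9.00 and 8.02 at 5 days in 9A1 and 8.92 and 9.09 at 5 days in 14B3, with all 1 day arrays above the rest. Bmf, which promotes cell death and is linked to loss of attachment, had 9.09 and 8.46 in basal 9A1 and 8.19 and 8.90 in basal 14B3, 10.68 and 9.09 at 1 day in 9A1 and 10.59 and 10.53 at 1 day in 14B3, and 9.69 and 8.12 at 5 days in 9A1 and 8.67 and 8.78 at 5 days in 14B3. Day 1 9A1 replicate 2 alone overlapped the other cultures.

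Ccnd3, cyclin D3, averaged 10.3 ± 0.33 at 1 day, 2.02-fold over basal. Genes of cell division went the other way. On the lists of DNA replication and mitosis 29 of 30 and 27 of 28 were lower at 1 day, and on the list of p53 targets and growth arrest 1 of the 23 genes other than Sesn3 was higher and 3 were lower. With Sesn3 included 2 were higher, and 7 without both doubtful 9A1 arrays.

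The 14 members for transcription and chromatin all met the rule in 14B3, as did 87.9% of all 116 members. In 9A1 6 of the 14 also met it, against 54.3% of all 116. Peak heights of the 14 ran from 0.81 to 1.18. The group includes Mllt3, which reads histone acetylation, Foxn3, a forkhead repressor, Zfpm1, a partner of GATA factors, and Kcnq1ot1, a long RNA antisense to Kcnq1. Averages at 1 day were 8.13 ± 0.64, 10.1 ± 0.43, 11.4 ± 0.23 and 7.95 ± 1.01 (SD, n = 4 each), in that order. For Pisd-ps3, a pseudogene, the probe set could also read its parent gene. The remaining 20 members are little known or fall outside these roles, Lrrc39 being the highest of them, with a peak height of 1.59.

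The lines agreed in direction for nearly all members and differed in size and evenness. In 113 of the 116 the 1 day mean was above the basal and the 5 day mean in both lines, against 15.7% of all tested genes. The rule, which took both lines together, fixes much of these shares, so the counts by line are a description. The exceptions, all in 9A1, were Bicc1, an RNA-binding protein that restrains Wnt signalling, Sprr1a, a cross-linked envelope protein, and Lifr, the receptor for leukaemia inhibitory factor, with peak heights there of -0.08, -0.05 and -0.06. The full rule held within 9A1 alone in 63 members and within 14B3 alone in 102, against 0.615% and 1.36% of all tested genes. It held within both lines in 52 (0.33%), within 14B3 but not 9A1 in 50, and within 9A1 but not 14B3 in 11. In 3 (Bcas1, Cybb and Smpd3) it held only over both lines together. Without both doubtful arrays 64 held within both lines. With the mean of a gene's probe sets in place of the brightest, 33 did.

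**Figure D4:**
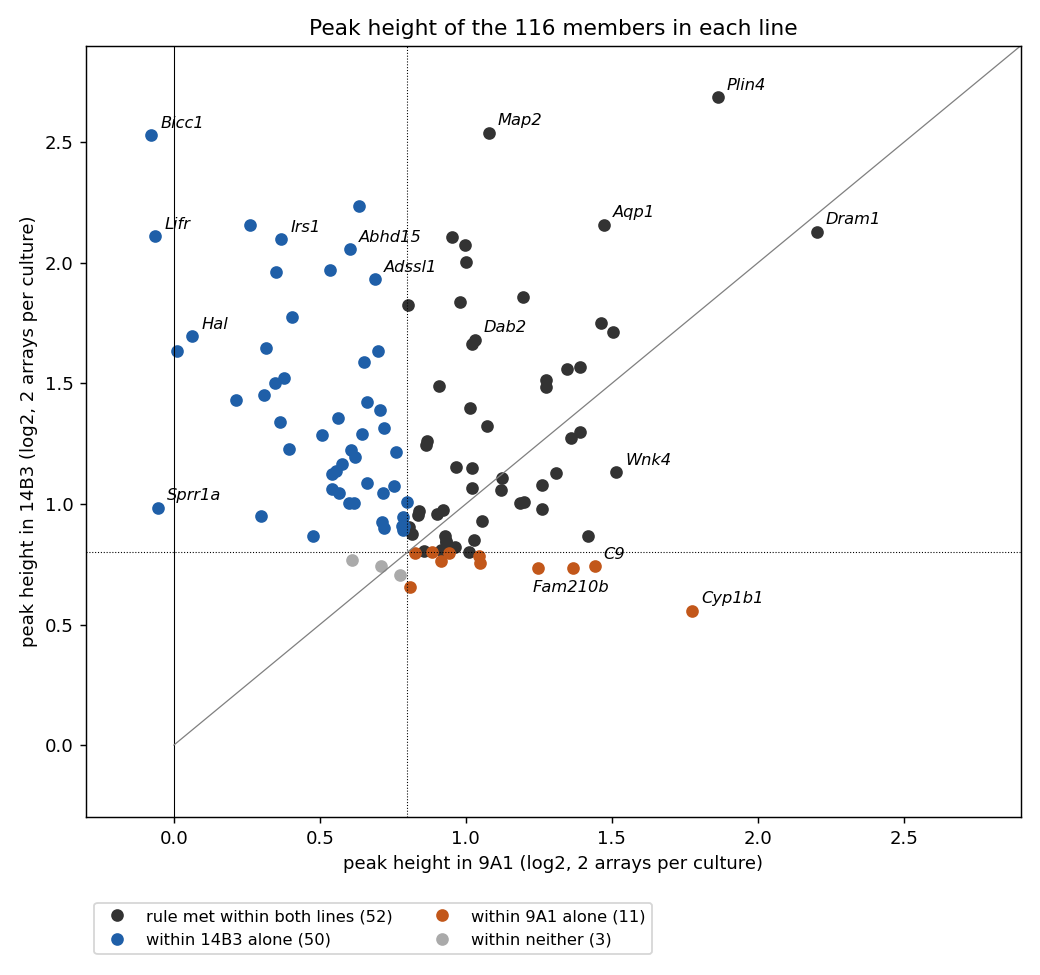
Peak height of the 116 members in 14B3 (vertical) against 9A1 (horizontal), log2, from 2 arrays per culture. Dotted lines mark the threshold of 0.8 and the grey diagonal equal heights; 83 members lie above the diagonal and 33 below it, and Bicc1, Lifr and Sprr1a lie left of 0.

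Replicates of 9A1 were uneven in basal culture and at 1 day. In basal 9A1 replicate 1 was higher by at least 1 in 14 members and replicate 2 in 15, against 8% and 5% of all tested genes. The rule used these same arrays and favours the counts of members at 1 day that follow, so they are a description. At 1 day both 1 day arrays exceeded the 4 other arrays of their line in 70 members in 9A1, against 5.17% of all tested genes, and in all 116 in 14B3, against 12%. Singly, 9A1 replicate 1 did so in 101 members (18.6%) and 9A1 replicate 2 in 78 (29.9%). Between them, replicate 1 was higher by at least 1 in 36 members (11.2%) and replicate 2 in 10 (5.45%), whereas in 14B3 the replicates differed by that much in 0 (0.387%). Glipr1 at 11.16 and 7.07, Ahnak2 at 10.88 and 7.24 and Nrep at 10.19 and 6.95 were far higher on replicate 1 of 9A1. Slc44a3 at 5.87 and 8.34, C9 at 9.27 and 11.75 and Cacna2d1 at 5.87 and 7.89 were far higher on replicate 2.

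The median peak height was 0.83 in 9A1 and 1.14 in 14B3. The difference of the lines in the peak, taken as 1 day minus the mean of basal and 5 days in 9A1 minus the same in 14B3, is not the quantity the rule used, which took means over both lines. It comes from the same arrays, and those of 9A1 vary more, so it is not free of the choice of members, and the same holds for the lines at 1 day. It was negative in 95 members and positive in 21, with a median of -0.34, against -0.01 over all tested genes. No member passed the test singly: 0 had an adjusted p under 0.05 (limma) and 15 an unadjusted p under 0.05, where 0.00634% and 2.98% of all tested genes passed. The rise taken alone gave 0 and 19 unadjusted (0% and 3.31% of all tested genes), and the fall 0 and 16 unadjusted (0.038% and 2.88%).

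The 5 members with the most negative differences were Bicc1 at -2.33 ± 1.02 (SE), Lifr at -1.97 ± 0.83, Rasgrp3, an activator of Ras and Rap, at -1.77 ± 0.45, Irs1 at -1.68 ± 0.27 and Map2 at -1.64 ± 0.39. Of these Irs1 had an adjusted p of 0.500 and the others of 0.988. At the other end stood Cyp1b1, a cytochrome P450 that oxidises steroids and xenobiotics, at 0.89 ± 1.06, Fam210b at 0.52 ± 0.59, Gabre, a GABA receptor subunit, at 0.48 ± 0.41, Wnk4, a kinase that controls salt transport, at 0.43 ± 0.33 and Pwwp3b at 0.30 ± 1.18, all with adjusted p of at least 0.988. Without day 1 9A1 replicate 1 the count of members passing was 12, with the lone 9A1 array assumed to vary like the other groups.

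Averaged over the cultures, 2 members differed between the lines, both lower in 9A1, where 0.272% of all tested genes passed. Adssl1, the muscle form of an enzyme of AMP synthesis, had 6.96 and 7.06 in basal 9A1 and 7.91 and 7.69 in basal 14B3, 7.59 and 7.81 at 1 day in 9A1 and 9.82 and 9.65 at 1 day in 14B3, and 5.68 and 6.15 at 5 days in 9A1 and 5.91 and 6.45 at 5 days in 14B3. The lines separated in basal culture and at 1 day and overlapped at 5 days. The difference was -1.03 ± 0.14 (SE, adjusted p = 0.0306), and the call was lost when any single 14B3 array or either 5 day 9A1 array was left out (adjusted p from 0.0510 to 0.146), and with array weights (0.171). Nav1 differed by -1.19 ± 0.19 (adjusted p = 0.0478), with the mean of its probe sets by -0.53 (adjusted p = 0.133), and with a replicate block its adjusted p was 0.0939.

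The members farthest apart over all cultures did not pass the test. Cacna2d1, a calcium channel subunit, differed by -2.30 ± 0.43 (adjusted p = 0.103) and Slc44a3, a choline transporter-like protein, by -1.22 ± 0.47 (adjusted p = 0.405). On the other side stood Glipr1 at 1.51 ± 0.75, Nrep at 1.37 ± 0.59, Adamts15 at 1.35 ± 0.29, Bicc1 at 1.03 ± 0.48 and Ahnak2 at 0.98 ± 0.64, with adjusted p from 0.148 to 0.675. At 1 day alone 0 members differed (limma, 24 at an unadjusted p under 0.05), where 0% and 5.24% of all tested genes did.

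The level at 5 days against basal was the comparison whose direction the rule did not fix, although the rule favours genes for which it is small against the peak. It shares its arrays with the peak height. Of the 116 members 20 differed, 4 higher and 16 lower at 5 days, where 35.4% of all tested genes differed, 16.9% higher and 18.5% lower. At an unadjusted p under 0.05 these were 27 members and 42.5% of tested genes. The median over members was -0.11, against 0.01 over all tested genes.

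The largest fall was in Gsn, which fell by 2.76 ± 0.38 (SE, adjusted p = 0.000632). Mmp13 fell by 2.74 ± 0.41 (adjusted p = 0.000934), and Cyp1b1 fell by 2.02 ± 0.61 (adjusted p = 0.0291). Ffar4 fell by 1.57 ± 0.20 (adjusted p = 0.000456), and Slc9a3r2, a scaffold that ties membrane proteins to actin, fell by 1.41 ± 0.31 (adjusted p = 0.00678). Notch1 fell by 1.37 ± 0.35 (adjusted p = 0.0135) and Sorl1 fell by 1.25 ± 0.19 (adjusted p = 0.000944). The group of actin, adhesion and microtubules held 5 of the 16, namely Gsn, Slc9a3r2, Sh3pxd2a, a scaffold of invadopodia, Nav1 and Rsu1, a partner of integrin adhesions. The others were Adssl1, Degs1, Fam20c, Cst9, Srgap1 and Rnase4, a secreted ribonuclease.

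The 4 higher at 5 days were Hal, by 2.00 ± 0.29 (adjusted p = 0.000847), Adamts15, by 1.09 ± 0.36 (adjusted p = 0.0404), Stat5a, by 0.81 ± 0.14 (adjusted p = 0.0019), and Gnpda1, which frees ammonia from glucosamine phosphate, by 0.67 ± 0.12 (adjusted p = 0.00235). C9, at 2.02 ± 1.10, did not pass (adjusted p = 0.206), nor did Aqp1 at 0.80 ± 0.63 (adjusted p = 0.408). In 15 of the 20 the arrays of 5 days and basal did not overlap, and in 19 both lines moved the same way. The exception was Cst9, a cystatin, at -1.90 in 9A1 and 0.34 in 14B3. The 20 were called on these same arrays, which favours both counts, and the shares over all tested genes were not counted. Both counts are a description. Among all members 4 (3.45%) had 5 day arrays on opposite sides of the basal arrays in the lines, namely Dab2, Ints6l, Sprr1a and Cbln3. This was near the 3.09% of all tested genes.

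**Figure D5:**
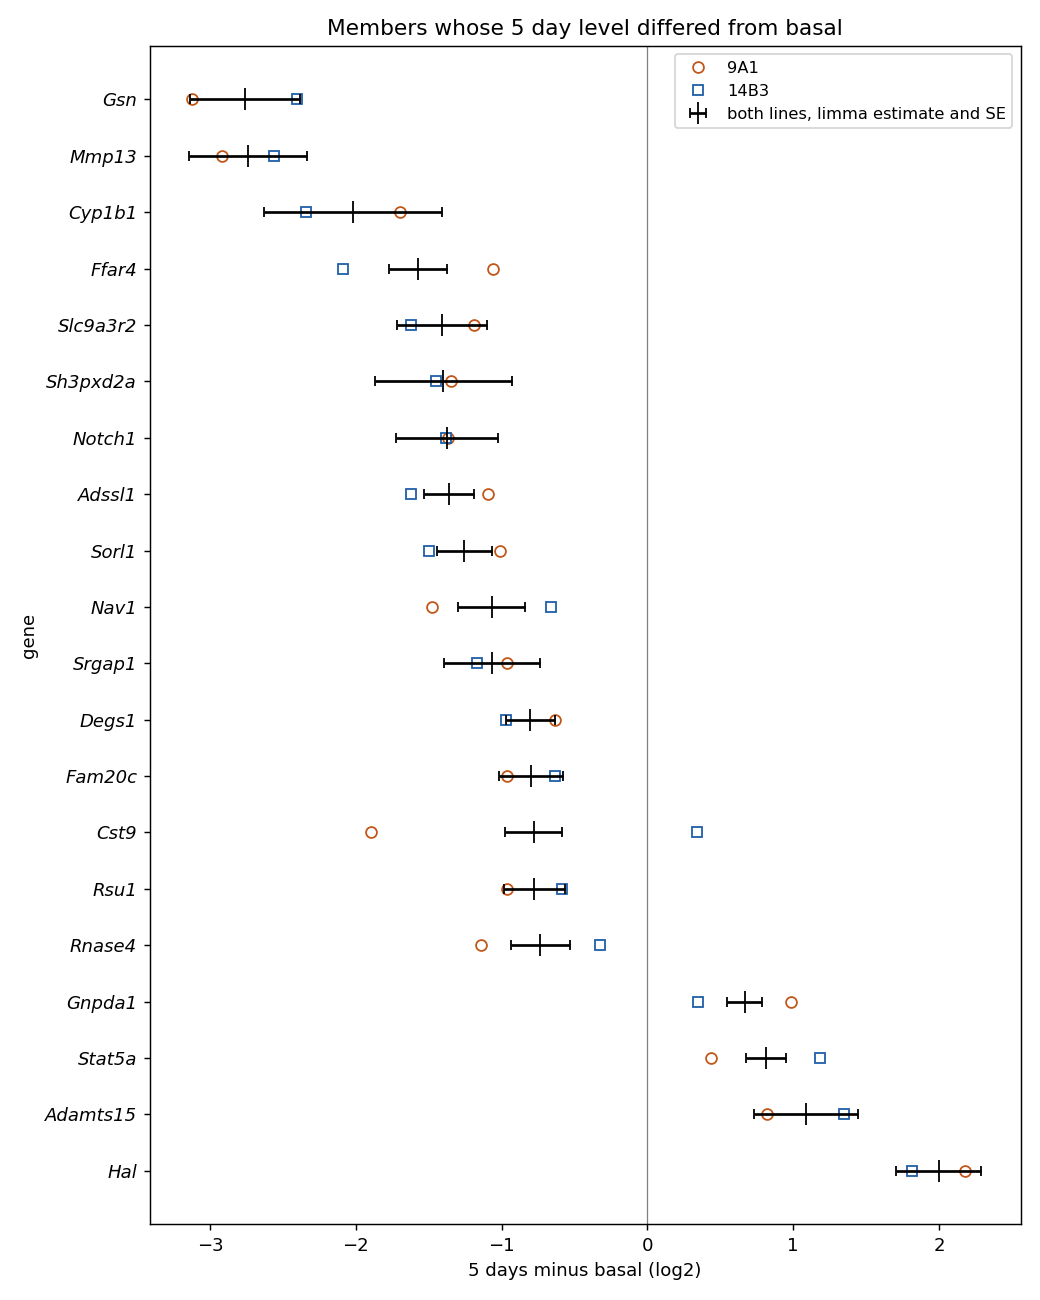
Level at 5 days minus basal, log2, for the 20 members that passed the test. Open symbols are the lines (means of 2 arrays each), the vertical tick is the limma estimate over both lines and the bar its standard error. Of the 20, 16 lie left of 0, and Gsn and Mmp13 lie farthest.

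Of these calls 11 stood under every alternative tried (Adssl1, Degs1, Ffar4, Gnpda1, Gsn, Hal, Mmp13, Nav1, Slc9a3r2, Sorl1 and Stat5a), and all 20 kept their sign. The count of calls changed when arrays were left out. Such fits hold a group with 1 array, whose spread is taken from the other groups, so their counts are not like the main one.

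The rule read each gene from its probe set with the highest mean, and other probe sets of the same genes are described here. Of the members 76 had 154 other probe sets and 40 had none. Among the 100 other probe sets with a 1 day mean of at least 6, 98 were highest at 1 day and 50 exceeded basal and 5 days by at least 0.8, in 35 members. That level selects on the peak itself. Of the 54 under it, 48 were highest at 1 day. They were hybridised with the same RNA, so they bear on the probes and not on the cultures.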

How the data were processed

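The 12 arrays were measured on Affymetrix mouse 430 2.0 chips. The deposited values are on a log2 scale. Per the submitters' processing notes, RMA and R 2.3.1 were used to make them. Of 45101 probe sets, 34945 name 1 gene, and each of 18194 genes was read from its probe set of highest mean level. One model over all 12 arrays, with a mean for each line and culture, was fitted with limma 3.58.1 (R 4.3.3, statmod 1.5.0, eBayes with trend) to genes with 2 or more arrays at a log2 level of 5 or above, with Benjamini-Hochberg adjustment over all of them and a threshold of 0.05. The code was tested on simulated data. The members and gene lists were chosen with earlier results of these data known. Genes named are the 15 with the greatest peak height, members on a gene list, the 5 most extreme each way by line difference in peak height, by line and by 5 days minus basal, those at the threshold and members of one family; others were chosen after their values were seen. The labels call the replicates biological duplicates. 1 further gene met the values and is not reported here. The number of arrays limits the precision.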

Additional observations from a re-analysis of the deposited data

Results flagged for a closer look

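In 4 members (3.45%) both 5 day arrays lay on one side of both basal arrays in 9A1 and on the other side in 14B3. That share was near the 3.09% of all tested genes, so the count is not a trait of the members. Values are 5 days minus basal, means of 2 arrays, log2, and the difference between the lines was not tested. Dab2, the clathrin adaptor, stood at -1.71 in 9A1 and at 0.96 in 14B3 (9A1 minus 14B3: -2.67). For Sprr1a the values were -1.87 in 9A1 and 1.14 in 14B3 (-3.01). Ints6l, related to a subunit of the Integrator complex, had -1.0 in 9A1 and 0.75 in 14B3 (-1.75). Cbln3, a secreted cerebellin, had 0.40 in 9A1 and -0.30 in 14B3 (0.69).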

How the results depend on the processing

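With 2 arrays per line and culture, single arrays of either line moved the counts. The fewest members, 97, were met without day 1 14B3 replicate 1 and the most, 205, without day 1 9A1 replicate 2. An excess of at least 0.6 gave 243 members and of at least 1 gave 61. Without basal 9A1 replicate 1 and day 1 9A1 replicate 2 together there were 186, and the members passing a test were 1 for the line difference in peak height, 3 for the fall to 5 days, 32 for the lines over all cultures, 19 for the lines at 1 day and 56 for 5 days against basal. Over all tested genes, 5301 then differed between 1 day and basal and 6703 between 5 days and 1 day, against 2216 and 3429. With the mean of a gene's probe sets 33 members met the rule in both lines and 40 in 9A1. Over all cultures 1 member differed between lines with no filter and with the replicate block (Adssl1 in both), and 1 with array weights (Cacna2d1, while Adssl1 and Nav1 lost the call). Deviations of same-numbered replicates correlated over 0.1 in 5 of 15 pairs of groups (from -0.29 to 0.49). The highest was between the lines at 1 day, and the next, 0.38, between 9A1 at 1 day and at 5 days. The main model did not pair samples by replicate number. The replicate block assumes the same shift in every group, and a shift shared by the lines at 1 day alone was not tested. At an adjusted p under 0.01, 0 members passed for the line difference in peak height, rise or fall. The same held for the lines over all cultures and for the lines at 1 day. At that threshold 11 members differed between 5 days and basal. Over all tested genes it gave 848 for 1 day against basal and 1592 for 5 days against 1 day. Array weights gave 1283 genes for 1 day against basal. With single arrays left out the ranges were 97 to 205 members, 40 to 71 in both lines, 45 to 80 in 9A1, 94 to 108 in 14B3, 0 to 12 for the line difference in peak height, 0 to 11 for the rise, 0 to 4 for the fall, 0 to 11 for the lines over all cultures, 0 to 17 at 1 day, 12 to 33 for 5 days against basal, 853 to 4792 genes for 1 day against basal and 1821 to 4958 for 5 days against 1 day. The line difference in peak height of Pwwp3b, 0.30, became -0.16, -1.15 and -0.21 without basal 9A1 replicate 1, day 1 9A1 replicate 1 and 5 day 9A1 replicate 2, and reached 1.75 without day 1 9A1 replicate 2. The cause was not tested.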
